A study of Mus musculus with 24 samples.

Results

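The chemokine ligands described here are 10 genes chosen by name, Ccl2, Ccl3, Ccl4, Ccl5, Ccl6, Ccl9, Ccl12, Cxcl9, Cxcl10 and Cxcl16. All 10 were found among the 39017 gene identifiers of the count table, and all 10 passed the filter on low counts that left 16535 genes for testing. RNA labelled as microglial and taken from spinal cord was sequenced in mice that had experimental autoimmune encephalomyelitis (EAE), a paralytic disease in which T cells attack myelin and which serves as a model of multiple sclerosis. The design crossed sex with the genotype of Kdm6a, an X-linked histone demethylase gene, and gave 6 libraries each of wildtype females, females with the Kdm6a conditional knockout (Kdm6a cKO), wildtype males and Kdm6a cKO males. Every library carried the EAE treatment label, and the series design names Tmem119-Cre, a microglial driver, with RiboTag, a tag on ribosomes for isolating RNA from Cre-expressing cells, for the mice of both sexes. The labels give no age, no strain and no floxed exon, and it is not said there whether libraries are from different animals, so p-values measure the spread between these libraries.

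Chemokines are small secreted proteins that bind receptors on leukocytes and direct their movement. Microglia and other myeloid cells make many of them when activated, and in EAE they are known for drawing monocytes and T cells into the spinal cord. Some chemokine genes are strongly induced by interferons through STAT and IRF transcription factors, while others depend mainly on other signals or are made constitutively by myeloid cells. Ccl2, Ccl5, Ccl12, Cxcl9 and Cxcl10 were grouped as interferon-induced ligands, and Ccl3, Ccl4, Ccl6, Ccl9 and Cxcl16 as other ligands. The grouping follows general knowledge of these genes, and several of them respond to more than one signal.

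The 250 bases before the start of 4 genes are printed first, 2 that were lower and 2 that were higher in female cKO libraries, because the classes are defined by how these genes are switched on. Of the 10 ligands, 6 matched the RefSeq promoter table (GRCm38.p6): Ccl3, Ccl6, Ccl9, Ccl12, Cxcl9 and Cxcl10. The unmatched genes were Ccl2, Ccl4, Ccl5 and Cxcl16. Each sequence runs 5′ to 3′ on the minus strand, the strand of the gene, and ends at the base before the start; capitals mark motif matches. The regions are chr5:92348890-92349139 for Cxcl10, chr5:92328080-92328329 for Cxcl9, chr11:83593088-83593337 for Ccl6 and chr11:83578637-83578886 for Ccl9.
Cxcl10: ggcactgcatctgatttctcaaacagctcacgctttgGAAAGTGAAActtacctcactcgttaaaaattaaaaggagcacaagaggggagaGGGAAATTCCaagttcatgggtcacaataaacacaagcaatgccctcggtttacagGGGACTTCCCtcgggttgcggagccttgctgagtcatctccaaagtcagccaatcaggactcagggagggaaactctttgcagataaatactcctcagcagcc
Cxcl9: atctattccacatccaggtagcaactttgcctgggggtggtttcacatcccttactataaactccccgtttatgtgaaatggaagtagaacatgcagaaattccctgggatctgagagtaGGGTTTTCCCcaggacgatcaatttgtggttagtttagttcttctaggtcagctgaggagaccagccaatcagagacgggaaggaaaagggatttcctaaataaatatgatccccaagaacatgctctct
Ccl6: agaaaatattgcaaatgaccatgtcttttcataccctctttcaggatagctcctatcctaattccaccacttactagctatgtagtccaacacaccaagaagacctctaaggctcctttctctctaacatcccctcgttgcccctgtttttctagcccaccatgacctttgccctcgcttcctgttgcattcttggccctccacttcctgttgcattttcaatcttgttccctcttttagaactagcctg
Ccl9: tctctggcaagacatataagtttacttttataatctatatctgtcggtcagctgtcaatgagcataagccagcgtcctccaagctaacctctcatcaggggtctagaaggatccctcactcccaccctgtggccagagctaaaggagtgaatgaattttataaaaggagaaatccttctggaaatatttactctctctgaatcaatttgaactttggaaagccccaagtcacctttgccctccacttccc
Motifs were searched on both strands. The core of the interferon-stimulated response element, GAAA, any 2 bases and again GAAA, was present in 978 of 32851 promoter windows of the same length (2.98%), the STAT motif TTCNNNGAA in 7.02% and the NF-kB motif, GGGA, any 4 bases and CC, in 17.6%. Cxcl10 held 1 interferon response element, GAAAGTGAAA, 213 to 204 bases before the start, and 2 NF-kB matches, GGGAAATTCC at 159 to 150 and GGGACTTCCC at 103 to 94 bases before it. Cxcl9 held 1 NF-kB match, 130 to 121 bases before the start, which reads GGGTTTTCCC on the gene's strand. None of the 3 motifs was found in the windows of Ccl3, Ccl6, Ccl9 or Ccl12. These are matches of letters in a short window and say nothing of whether a factor binds there.

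Total counts ranged from 27110133 to 40554736 per library. Kdm6a averaged 4.51 ± 1.37 CPM (counts scaled to library size; SD, n = 6) in wildtype and 2.50 ± 0.671 in cKO females, with 2.79 ± 0.705 in wildtype and 1.08 ± 0.382 in cKO males, and was lower in cKO of both sexes (log2 change -0.85, adjusted p = 0.031, and -1.36, adjusted p = 0.016; quasi-likelihood test of edgeR, adjusted by Benjamini-Hochberg, used for every adjusted p below unless another tool is named). The 10 microglia markers summed to 5240 to 11154 CPM over the 24 libraries. Tmem119, the gene named in the Cre driver, averaged 365 CPM (272 to 433) in wildtype and 213 (190 to 291) in cKO females. In males it averaged 346 CPM (256 to 470) in wildtype and 347 (288 to 398) in cKO. The microglial gene P2ry12 was higher on average in cKO, at 122 and 227 CPM in females and 84.5 and 133 in males. Whether the level of the driver gene bears on the ligand results was not tested. The Y-linked Ddx3y had 18 counts in female wildtype replicate 2 and 40 in replicate 3, against 0 in the other female wildtype libraries, and male cKO replicate 3 held 16 counts of Xist, against 0 in the other male libraries. Tchh, a hair follicle gene, had 3904 and 7365 counts in female wildtype replicates 2 and 3, against 44 to 588 in all other libraries. Whether carry-over of other tissue bears on the ligand results was not tested. Female wildtype replicate 5 and male cKO replicate 1 stood apart in the ligands themselves, as given below. Kdm6a was at 2.167 CPM in female wildtype replicate 5, against 4.226 to 6.088 in the other female wildtype libraries. That value lay within the female cKO range of 1.556 to 3.483 CPM. Whether the genotype label of this library is right was not tested. Results were also computed without female wildtype replicates 2, 3 and 5 and male cKO replicate 3 (the 4 doubted libraries), and within replicates 1 to 3 and 4 to 6, which are numbered only in accession order and had separated over all genes in earlier work on these data.

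In females, 4 ligands were higher in cKO than in wildtype, Ccl3, Ccl4, Ccl6 and Ccl9, and 3 were lower, Ccl5, Cxcl9 and Cxcl10 (adjusted p under 0.05). All 4 that rose are in the group of other ligands, and all 3 that fell are interferon-induced. Of all genes tested, 3.32% were higher and 4.41% lower in the same comparison. DESeq2 gave the same counts, 4 higher and 3 lower. The levels of 5 ligands did not overlap between the female groups: Ccl3, Ccl6 and Ccl9 were higher in every cKO library than in any wildtype library, which held for 2.36% of genes, and Cxcl9 and Cxcl10 were lower in every cKO library, which held for 2.10% of genes. In males, 2 ligands were higher in cKO, Ccl6 and Ccl9, against 0.0726% of genes tested, and none of the 10 was lower, against 0.115% of genes; DESeq2 also gave 2 higher and 0 lower, and no ligand was lower at an unadjusted p under 0.05. Ccl6 and Ccl9 did not overlap between the male groups either, as for 0.230% of genes.

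**Figure D1:**
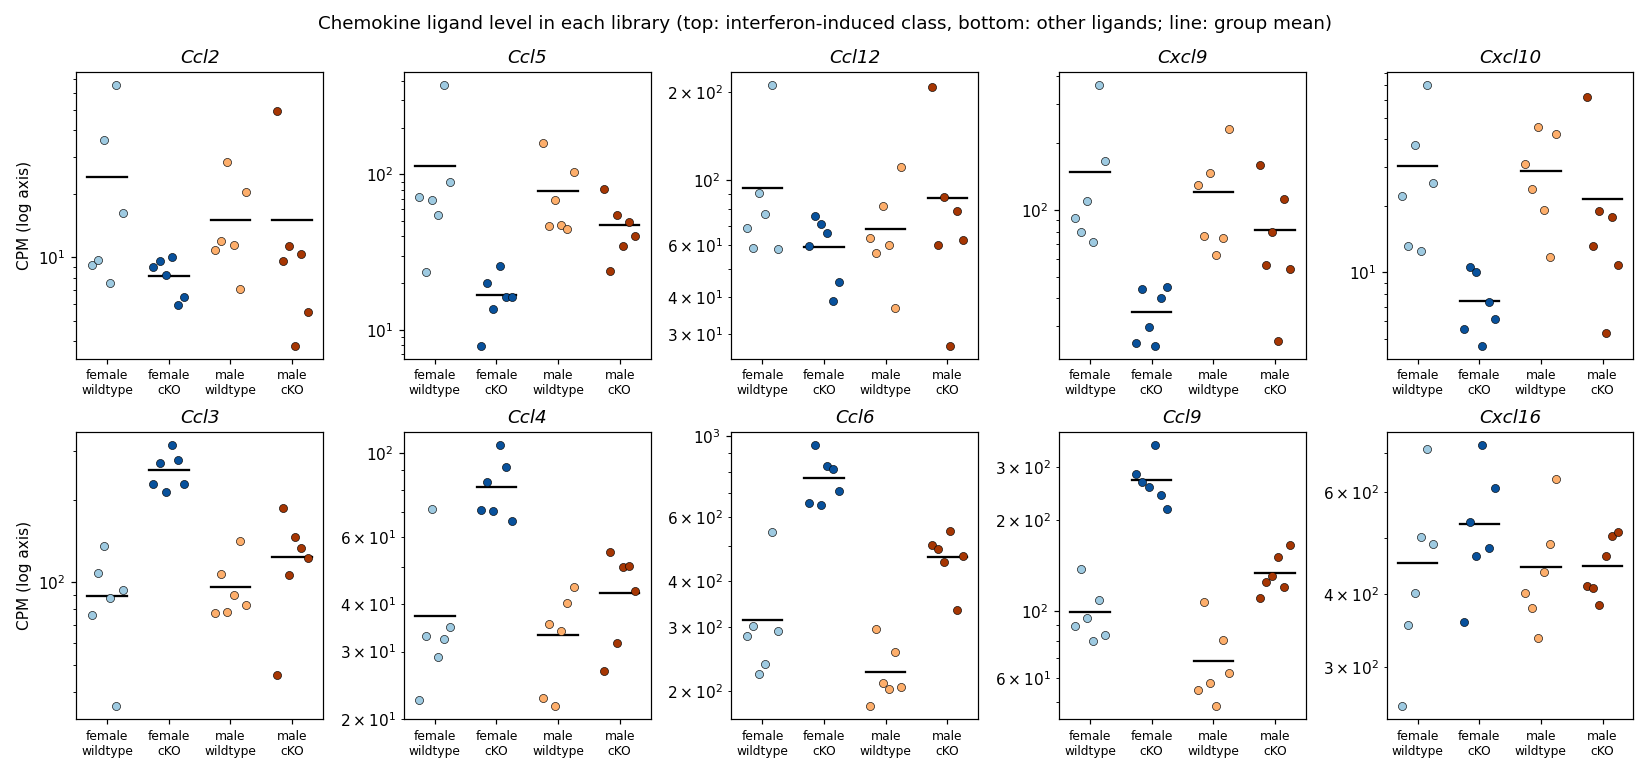
Level of each chemokine ligand in each of the 24 libraries, in CPM on a log axis, with 1 point per library and a line at the group mean (6 libraries a group). The top row holds the interferon-induced ligands and the bottom row the others. Ccl3, Ccl6 and Ccl9 lie between 214 and 945 CPM in female cKO libraries, above every female wildtype library of the same gene, and the highest points of Ccl2, Ccl12 and Cxcl10 in males are 1 library, male cKO replicate 1.

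Cxcl9 and Cxcl10 encode ligands of CXCR3, the receptor that guides activated T cells, and both are classical products of interferon-gamma signalling. Cxcl9 ranged from 71.9 to 366 CPM (median 101) in female wildtype and from 24.5 to 45.1 (median 35.0) in female cKO libraries. In males it ranged from 63.0 to 231 CPM (median 103) in wildtype and from 25.8 to 159 (median 67.9) in cKO. The female groups were fully apart, while the male groups overlapped over most of their range. Cxcl9 fell by 2.09 on the log2 scale in females (SE 0.41, adjusted p = 0.0013), and in males its log2 change was -0.57 (SE 0.40, adjusted p = 1.0). Cxcl10 ranged from 12.4 to 70.4 CPM (median 23.7) in female wildtype and from 4.66 to 10.6 (median 6.76) in female cKO libraries. Among males it ran from 11.7 to 45.5 CPM (median 27.4) in wildtype and from 5.29 to 62.3 (median 15.5) in cKO libraries. The lowest female wildtype library thus lay above the highest female cKO library, and in male cKO the top value came from replicate 1 alone, the next being 18.9. Cxcl10 fell by 2.03 on the log2 scale in females (SE 0.48, adjusted p = 0.0064), and its male log2 change was -0.43 (SE 0.46, adjusted p = 1.0). For both genes the exact 2-sided permutation test on CPM in females gave p = 0.00216, the smallest that 6 against 6 allow and unadjusted for the 20 such tests run. Without female wildtype replicate 5 the female changes were smaller and still passed, -1.58 for Cxcl9 (adjusted p = 0.0047) and -1.58 for Cxcl10 (adjusted p = 0.027). Without the 4 doubted libraries Cxcl9 still fell (-1.67, adjusted p = 0.015) and Cxcl10 was at -1.43 (adjusted p = 0.11).

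Ccl5 encodes a chemokine that attracts T cells and monocytes, and it is made by T cells and natural killer cells as well as by macrophages. It ranged from 23.7 to 377 CPM (median 69.7) in female wildtype and from 7.89 to 25.8 (median 16.3) in female cKO libraries. Male wildtype libraries spanned 44.5 to 160.1 CPM (median 57.7) and male cKO libraries 23.8 to 80.5 (median 44.7). The female groups touched at 1 point, where the lowest wildtype library lay just under the highest cKO library. Ccl5 had the largest female change among the ligands, a log2 change of -2.78 (SE 0.49, adjusted p = 4.1e-04), and in males -0.73 (SE 0.46, adjusted p = 1.0). Female wildtype replicate 5, at 377 CPM against 89.8 in the next library, carried much of its size: without it the female change was -1.88 (adjusted p = 8.5e-04). As libraries are bulk RNA, fewer cells of a type and less RNA per cell cannot be told apart for this or any other gene here.

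Markers of other cells moved in part with these ligands. The 7 natural killer cell markers, of which 1 was tested, summed to 1.39 to 2.52 CPM in female wildtype and 0.328 to 0.697 in female cKO libraries, and to 1.70 to 2.92 and 0.529 to 2.13 in the male groups. Klrb1c, the tested one, fell in female cKO (log2 change -2.59, adjusted p = 4.8e-05), while Ncr1 was at 0 in 19 of 24 libraries and Prf1 in 16. The 10 T cell markers, 7 tested, summed to 3.58 to 10.5 CPM in wildtype and 3.05 to 10.2 in cKO females, and to 5.08 to 7.99 and 4.64 to 8.24 in wildtype and cKO males. The 11 monocyte markers, 9 tested, summed to 178 to 565, 498 to 920.1, 176 to 369 and 317 to 1032 CPM in the same order, almost all from Fn1, which rose in female cKO (log2 change 1.18, adjusted p = 0.0072). The other 10 monocyte markers, a split made after seeing the data, summed to 4.77 to 10.9 CPM in female wildtype and 2.73 to 4.79 in female cKO, with 4.06 to 8.76 and 3.73 to 5.71 in males; Ly6c2 fell in females (log2 change -4.46, adjusted p = 0.0081) and was at 0 in 8 libraries. With a covariate for 18 markers of monocytes, T cells, neutrophils and B cells, the female change of Ccl5 was -1.61 (adjusted p = 0.0080). That of Cxcl9 was -1.56 (adjusted p = 0.024) and that of Cxcl10 -1.42 (adjusted p = 0.14). The covariate is a mean over markers that moved in opposite directions in female cKO, such as Fn1 and Ly6c2. It therefore tracks no single cell type, and no natural killer cell marker is in it. The 6 endothelial markers, all tested, summed to 45.1 to 97.4 CPM in wildtype and 104 to 165 in cKO females, and to 63.9 to 84.6 and 56.6 to 136 in wildtype and cKO males. Of these Flt1, which made up most of the sum, rose in female cKO (log2 change 1.25, adjusted p = 6.8e-04) and Kdr fell (-1.45, adjusted p = 4.0e-04). The other 5 without Flt1, a split made after seeing the data, summed to 13.4 to 20.2 CPM in wildtype and 6.13 to 12.5 in cKO females, and to 11.3 to 18.3 and 5.94 to 9.98 in the male groups. The 6 oligodendrocyte markers summed to 2105 to 3459 CPM over the 24 libraries and the 7 astrocyte markers to 442 to 781. The 6 fibroblast markers summed to 97.2 to 693 CPM and the 6 neuron markers to 161 to 340. The part of natural killer, endothelial and these other cells in the ligand results was not tested.

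Ccl2 and Ccl12 encode ligands of CCR2, the receptor by which inflammatory monocytes leave the blood, and Ccl12 is a gene known from mice. Ccl2 ranged from 7.54 to 65.5 CPM (median 12.97) in wildtype females and from 5.93 to 9.99 (median 8.60) in cKO females. In wildtype males it spanned 7.09 to 28.3 CPM (median 11.7), and in cKO males 3.81 to 49.5 (median 10.02). The groups overlapped in both sexes. Its log2 change was -1.55 in females (SE 0.54, adjusted p = 0.081) and 0.01 in males (SE 0.52, adjusted p = 1.0). The female change passed when female wildtype replicate 2 or 4 or male cKO replicate 1 was left out (-1.72, -1.74 and -1.55, adjusted p = 0.046, 0.048 and 0.025) and was -0.94 without female wildtype replicate 5 (adjusted p = 0.37) and -0.43 without the 4 doubted libraries (adjusted p = 0.83). The male value rested on male cKO replicate 1, at 49.5 CPM against 11.4 in the next library, and was -0.88 without it (adjusted p = 1.0). Ccl12 ranged from 58.2 to 211 CPM (median 72.7) in wildtype females and from 38.8 to 75.3 (median 62.9) in cKO females. The male libraries spanned 36.6 to 111 CPM (median 61.9) for wildtype and 27.3 to 208 (median 70.4) for cKO. These ranges overlapped throughout, and the female log2 change was -0.67 (SE 0.36, adjusted p = 0.33) and the male one 0.36 (SE 0.36, adjusted p = 1.0). The male value was -0.11 without male cKO replicate 1.

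Ccl3 and Ccl4, also called macrophage inflammatory protein 1 alpha and beta, attract monocytes, T cells and other leukocytes, and Ccl3 binds CCR1. Ccl3 ranged from 35.4 to 136 CPM (median 90.6) in female wildtype and from 214 to 316 (median 249.9) in female cKO libraries. In males it ranged from 77.3 to 142 CPM (median 86.2) in wildtype and from 45.9 to 187 (median 128) in cKO libraries. Every female cKO library exceeded every other library of the series, and the male groups overlapped. Ccl3 rose by 1.52 on the log2 scale in females (SE 0.26, adjusted p = 2.9e-04), and its male log2 change was 0.36 (SE 0.26, adjusted p = 1.0). Ccl4 ranged from 22.4 to 71.2 CPM (median 32.7) in female wildtype and from 66.0 to 105 (median 77.2) in female cKO libraries. Among males it ran from 21.6 to 44.4 CPM (median 34.8) in wildtype and from 26.7 to 54.8 (median 46.7) in cKO libraries. Female wildtype replicate 3 alone reached into the female cKO range, the next wildtype library being at 34.9 CPM. Ccl4 rose by 1.13 in females (SE 0.23, adjusted p = 0.0021) and had a male log2 change of 0.37 (SE 0.23, adjusted p = 1.0). Without the 4 doubted libraries the female changes were 1.58 for Ccl3 and 1.495 for Ccl4, both past the threshold.

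Ccl6 and Ccl9 encode myeloid CC chemokines known from mice, where they act through CCR1. They were the 2 ligands that passed in both sexes. Ccl6 ranged from 223 to 547 CPM (median 288) in female wildtype and from 646 to 945 (median 760.1) in female cKO libraries. The male values ran from 182 to 297 CPM (median 208) in wildtype and from 334 to 549.8 (median 481) in cKO libraries. In each sex the lowest cKO library lay above the highest wildtype library. Ccl6 rose by 1.28 in females (SE 0.18, adjusted p = 1.6e-05) and by 1.05 in males (SE 0.18, adjusted p = 0.0078). Ccl9 ranged from 79.5 to 138 CPM (median 92.0) in female wildtype and from 218 to 354 (median 263) in female cKO libraries. In males it ranged from 48.6 to 107 CPM (median 60.2) in wildtype and from 110.2 to 165 (median 128) in cKO libraries. The groups were again apart in both sexes, by a narrow margin in males. Ccl9 rose by 1.45 in females (SE 0.17, adjusted p = 1.9e-06) and by 0.97 in males (SE 0.17, adjusted p = 0.0098). By p-value Ccl6 and Ccl9 ranked 6 and 8 of all 16535 genes in the male comparison. In limma voom with the title number of each sample as a random effect both male calls were lost (1.05, adjusted p = 0.10, for Ccl6 and 0.99, adjusted p = 0.16, for Ccl9). In limma voom without that number, a fit added after seeing the data, both passed (adjusted p = 0.0057 for each).

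Cxcl16 encodes a membrane-bound chemokine, also shed, that binds CXCR6 on T cells. It ranged from 257 to 712 CPM (median 446) in wildtype females and from 359 to 722 (median 506) in cKO females. Wildtype males spanned 337 to 631 CPM (median 420.1) and cKO males 383 to 512 (median 439.6). The 4 ranges overlapped almost fully. Its log2 change was 0.22 in females (95% interval -0.18 to 0.62, adjusted p = 0.60) and 0.01 in males (95% interval -0.39 to 0.40, adjusted p = 1.0). Zmynd15, which overlaps Cxcl16 on the other strand, averaged 101 to 124 CPM over the groups, and because the strand setting of the counting is not given, reads of the pair cannot be told apart. The overlapping partners of 3 other ligands were low: Gm17268 at Ccl2 had no counts, E230016K23Rik at Ccl6 averaged 0.119 to 0.617 CPM and Art3 at Cxcl10 averaged 1.14 to 3.26.

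**Figure D2:**
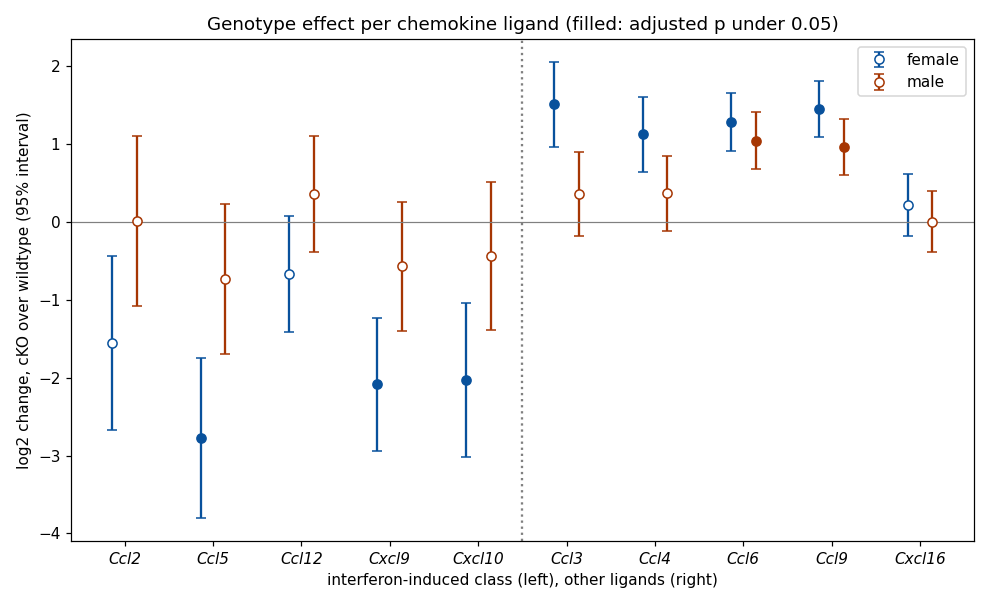
Log2 change, cKO over wildtype, of each chemokine ligand in females and males, with 95% intervals from edgeR and filled points where the adjusted p was under 0.05. Interferon-induced ligands stand left of the dotted line and other ligands right of it. In females the filled points run from -2.78 (Ccl5) to 1.52 (Ccl3), and in males only Ccl6 and Ccl9 are filled, at 1.05 and 0.97; the male value of Ccl2, near 0, turns negative without male cKO replicate 1.

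The female change was larger in size than the male change for all 10 ligands as fitted, and the test of the difference itself called none of them, against 0.411% of all genes in either direction. At an unadjusted p under 0.05 the difference passed for 6 ligands by edgeR and 5 by DESeq2. The female minus male differences of these 6 were -2.04 for Ccl5, -1.60 for Cxcl10, -1.56 for Ccl2, -1.52 for Cxcl9, 1.16 for Ccl3 and 0.76 for Ccl4 (log2 scale, lowest adjusted p = 0.26, for Ccl3), where 7.11% of all genes passed by edgeR in either direction. Without female wildtype replicate 5 the differences were -1.15 for Ccl5 and -1.01 for Cxcl9, and without male cKO replicate 1 they were -0.91 for Cxcl10 and -0.68 for Ccl2. For Ccl6 and Ccl9 the differences were 0.24 (95% interval -0.28 to 0.75) and 0.48 (95% interval -0.01 to 0.98). Averaged over the sexes, the same 4 ligands were higher, with 2.76% of all genes, and the same 3 lower, with 3.78% of all genes; this average uses the libraries of both comparisons above. With the title number as a random effect in limma voom 3 of the 7 remained, Ccl4, Ccl6 and Ccl9, while without it limma voom called all 7. The shares of all genes called by these limma fits are not given here.

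The sexes were also compared within a genotype, in comparisons that share libraries with those above. In wildtype none of the 10 ligands differed between females and males at an adjusted p under 0.05, against 0.0363% of all genes, while Ccl6 and Ccl9 were higher in females at an unadjusted p under 0.05, as were 2.20% of all genes (log2 differences 0.48 and 0.53; 2 ligands by DESeq2 also). In cKO libraries 4 ligands were higher in females, with 0.883% of all genes, and none was lower, with 1.10% of all genes. These were Ccl3 (log2 difference 1.05, adjusted p = 0.027), Ccl4 (0.92, adjusted p = 0.032), Ccl6 (0.71, adjusted p = 0.027) and Ccl9 (1.02, adjusted p = 7.6e-04). Of the interferon-induced ligands, 3 were lower in female cKO at an unadjusted p under 0.05, Ccl5 at -1.50, Cxcl9 at -1.22 and Cxcl10 at -1.53 (adjusted p = 0.12, 0.15 and 0.11), as were 5.03% of all genes. Without male cKO replicate 1 the value of Cxcl10 was -0.84. The count in cKO dropped to 1, Ccl9, when any of female cKO replicates 2, 4 and 5 or male cKO replicates 1, 3 and 6 was left out, and it reached 7 without female wildtype replicate 5. For these fits the shares of all genes called are not given here.

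The 5 interferon-induced ligands had a median log2 change of -2.03 in females, with 3 lower and 0 higher, and the 5 other ligands a median of 1.28, with 4 higher and 0 lower, where the median over all genes tested was -0.02. In males the medians were -0.43 and 0.37, where that of all genes was 0.01. The summed level of the interferon-induced ligands averaged 410.1 ± 339.9 CPM in wildtype and 126 ± 19.5 in cKO females, and 311 ± 133 in wildtype and 252 ± 163 in cKO males (SD, n = 6). The summed level of the other ligands averaged 993 ± 236, 1901 ± 274, 869.6 ± 137 and 1216 ± 114 CPM in the same order. Interferon-induced ligands thus made up 26.5% ± 9.27 of the summed ligand CPM in wildtype females and 6.27% ± 0.851 in cKO females, against 26.0% ± 9.10 in wildtype males and 16.8% ± 9.51 in cKO males. The female cKO libraries lay between 5.34% and 7.43%, and every other library except male cKO replicate 4, at 6.63%, lay at 11.4% or more.

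As a per-library score, the mean log2(CPM + 1) of the interferon-induced ligands less that of the others was -1.32 ± 0.88 in wildtype and -3.95 ± 0.23 in cKO females, and -1.34 ± 0.76 in wildtype and -2.30 ± 1.14 in cKO males (SD, n = 6). The cKO minus wildtype difference of this score was -2.63 in females and -0.97 in males, and leaving out 1 library at a time gave -2.83 to -2.31 and -1.35 to -0.69. These are descriptions, since the ligands were chosen with results known. Male cKO replicate 1, at -0.36, lay within the range of the 12 wildtype libraries, and male cKO replicate 4, at -3.69, within the female cKO range of -4.25 to -3.69. Female wildtype replicate 5, at 0.28, was the 1 library with a higher mean of interferon-induced than of other ligands, on CPM not scaled by gene length.

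**Figure D3:**
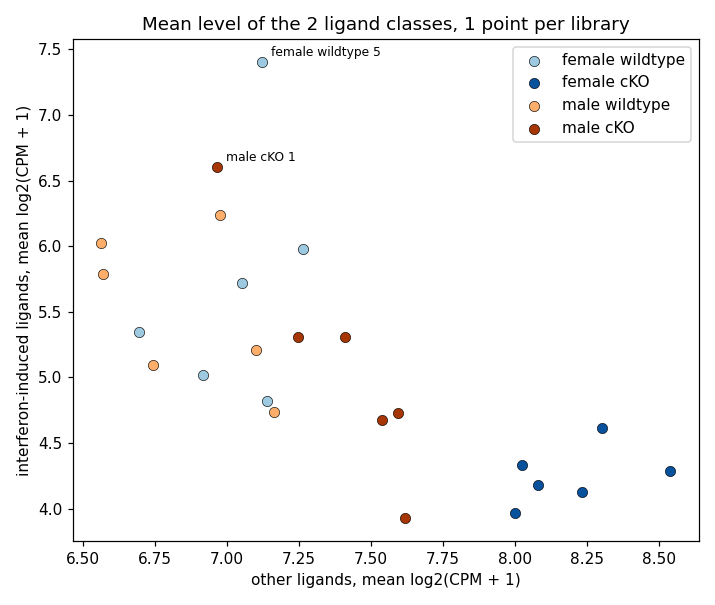
Mean log2(CPM + 1) of the 5 other ligands (horizontal) against that of the 5 interferon-induced ligands (vertical), with 1 point per library coloured by group. Female cKO libraries lie at the lower right, at 8.001 to 8.54 on the horizontal and 3.96 to 4.62 on the vertical axis, and female wildtype replicate 5 and male cKO replicate 1 are the highest points, at 7.41 and 6.60 on the vertical axis.

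The order of single ligands was compared per length, as CPM per kb of merged exons. The summed levels, shares and class scores above use CPM that are not scaled by length. Their size within a library therefore depends in part on gene length, with merged exons of 537 bases for Ccl12 and 3045 for Ccl9. In female wildtype libraries Ccl12 (175 ± 109 CPM per kb), Ccl6 (175 ± 65.9), Cxcl16 (150.0 ± 51.5), Ccl5 (119 ± 136) and Ccl3 (117 ± 43.8) stood highest and did not differ beyond their spread. Ccl4 (56.3 ± 26.2), Cxcl9 (49.0 ± 37.2) and Ccl9 (32.5 ± 7.16) came next, and Ccl2 (21.1 ± 20.1) and Cxcl10 (13.4 ± 9.66) were lowest. In female cKO libraries the order opened with Ccl6 (427 ± 64.9) and Ccl3 (334 ± 51.1), followed by Cxcl16 (175 ± 41.6), Ccl4 (123 ± 22.8), Ccl12 (110.5 ± 27.1) and Ccl9 (88.9 ± 15.3). Ccl5 (17.4 ± 6.26), Cxcl9 (11.5 ± 3.12), Ccl2 (7.20 ± 1.47) and Cxcl10 (3.29 ± 1.08) closed it. Without female wildtype replicate 5, Ccl5 averaged 64.0 ± 25.6 CPM per kb and Ccl12 132 ± 25.2 in the other female wildtype libraries. In male wildtype Cxcl16 (148 ± 34.4), Ccl12 (127 ± 47.1), Ccl6 (126 ± 23.7) and Ccl3 (126 ± 32.6) led with overlapping spreads, and in male cKO Ccl6 (260.2 ± 40.8) led, with Ccl12 (162 ± 117) and Ccl3 (161 ± 61.1) after it.

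Ligands that lie side by side did not all move together. Ccl5, Ccl9, Ccl6, Ccl3 and Ccl4 lie in this order on chromosome 11 from 83525778 to 83664683 (mm10), a span of 139 kb. Within it Ccl5 fell in females while its 4 neighbours rose, and the start of Ccl9 lies 48.1 kb from that of Ccl5. The noncoding gene E230016K23Rik, which overlaps Ccl6 on the other strand, also rose in females (2.18, adjusted p = 0.014), from 0.137 to 0.617 CPM on average. Of the tested genes that flank the span, Taf15 was at -0.11 (adjusted p = 0.82) and Wfdc17 fell (-1.43, adjusted p = 0.0015). A second cluster on chromosome 11 holds Ccl2 and Ccl12, from 82035571 to 82103400 (67.8 kb), with Ccl7 and Ccl11 between them and Ccl8 beyond. There Ccl8 fell in females (-2.74, adjusted p = 0.0059), Ccl11 rose (1.29, adjusted p = 0.047, from 0.828 to 2.02 CPM on average) and Ccl7 was at -1.38 (adjusted p = 0.21). Cxcl9 and Cxcl10 lie 27.5 kb from end to end on chromosome 5, from 92321347 to 92348889, next to Cxcl11, a gene for another CXCR3 ligand. Cxcl11 is annotated as a polymorphic pseudogene, and with no strain given it is not known whether it is intact here. It fell in females as well (-2.51, adjusted p = 0.039) from a mean of 0.431 to 0.0708 CPM. Cxcl16 lies apart on chromosome 11, from 70453983 to 70459984.

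**Figure D4:**
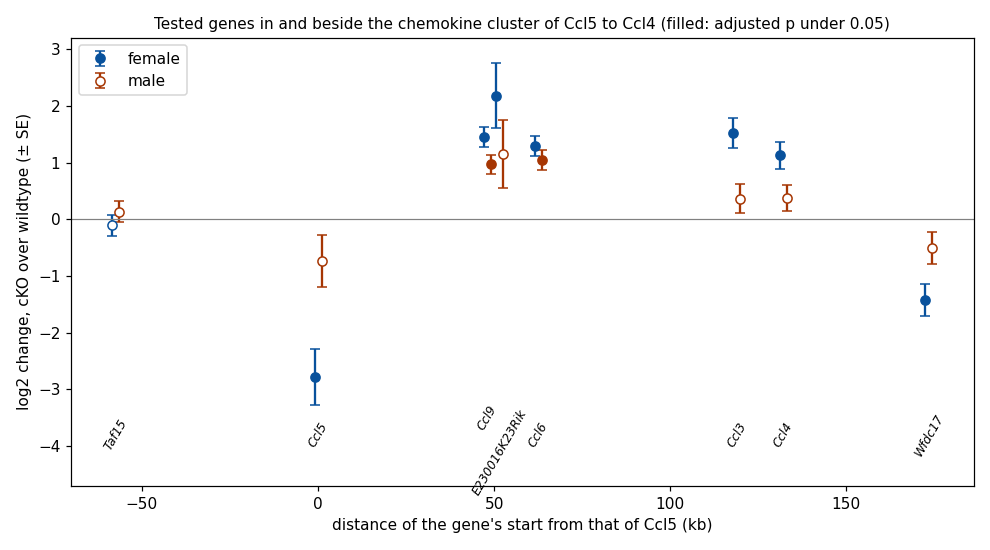
Log2 change, cKO over wildtype (± SE), of the tested genes in and beside the chromosome 11 cluster that runs from Ccl5 to Ccl4, against the distance of each gene's start from that of Ccl5 in kb. Filled points had an adjusted p under 0.05. In females Ccl5 lies at -2.78 and the next ligand, Ccl9, 48.1 kb away, at 1.45.

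Across libraries, the interferon-induced ligands varied together. Correlations were taken over all 24 libraries on log2(CPM + 1) after removal of each group's mean, so that genotype and sex do not set them, with permutation tests within groups and Benjamini-Hochberg adjustment over 65 relations. All 10 pairs of interferon-induced ligands were positively correlated and passed (Pearson's r 0.61 to 0.91, median 0.76). The closest pair was Ccl2 and Cxcl10 (r = 0.91, Spearman's rho = 0.79, permutation p = 1.0e-05 and 8.0e-05, adjusted 1.3e-04 and 0.0013), and r was 0.83 without the 2 libraries farthest from the median of Ccl2, female wildtype 5 and male cKO 1. Cxcl9 and Cxcl10 gave r = 0.87 (rho = 0.85, permutation p = 1.0e-05 and 3.0e-05, adjusted 1.3e-04 and 6.5e-04), and 0.80 without the same 2 libraries. The value of 1.0e-05 is the smallest these permutations can give. Within replicates 1 to 3 the 10 pairs had r of 0.37 to 0.96, and within replicates 4 to 6 of 0.72 to 0.96 (12 libraries each).

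The other ligands were linked less closely, with a median r of 0.30 and 1 of 10 pairs past the adjustment, Ccl3 and Ccl4 (r = 0.65, rho = 0.73, permutation p = 0.0037 and 1.7e-04, adjusted 0.012 and 0.0018). Without female wildtype 5 and male cKO 1 that r was 0.75, and it was 0.78 within replicates 1 to 3 and 0.23 within replicates 4 to 6. Ccl6 and Ccl9, the pair that passed in both sexes, had r = 0.50 (rho = 0.53, permutation p = 0.023 and 0.014, adjusted 0.059 and 0.041), 0.41 without female wildtype 5 and male wildtype 2, and 0.64 and 0.68 within the sets of replicates. Between the classes the median r was -0.18. There 4 of 25 pairs passed, all with Ccl3, which was lower where Ccl5, Ccl12, Cxcl9 or Cxcl10 was higher (r -0.66, -0.75, -0.66 and -0.72, rho -0.52, -0.59, -0.54 and -0.58, adjusted permutation p 0.011, 0.0084, 0.015 and 0.011 for r). Without female wildtype 5 and male cKO 1 these 4 values were -0.40, -0.44, -0.37 and -0.41, so a large part of their size rests on those libraries, where Ccl3 was at 35.4 and 45.9 CPM.

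**Figure D5:**
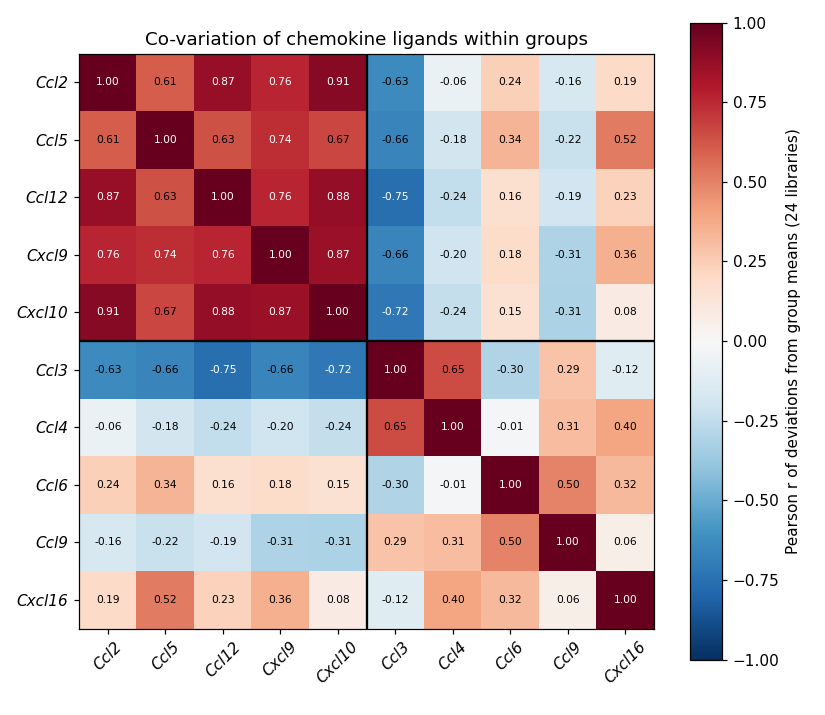
Pearson's r between each pair of chemokine ligands over 24 libraries, on log2(CPM + 1) less the group mean, with lines between the interferon-induced ligands (first 5) and the others. The upper left block is positive throughout, from 0.61 to 0.91, and Ccl3 is negative with each interferon-induced ligand; its 4 values that passed the adjustment lie between -0.66 and -0.75 and come to between -0.37 and -0.44 without female wildtype 5 and male cKO 1.

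A score of 24 genes of interferon signalling, none of them a chemokine, followed the same division. Its correlation with the 5 interferon-induced ligands was 0.71 to 0.90, with all 5 past the adjustment, and was highest for Cxcl10 (r = 0.90, rho = 0.83, permutation p = 1.0e-05 for each, adjusted 1.3e-04 and 3.2e-04, r = 0.83 without female wildtype 5 and male cKO 1). With the other ligands the median r was -0.21, and 1 of 5 passed, Ccl3 (r = -0.76, rho = -0.65, permutation p = 7.8e-04 and 0.0016, adjusted 0.0039 and 0.010, r = -0.52 without the same 2 libraries). A score of monocyte, T cell, neutrophil and B cell markers passed with 1 of the 10 ligands, Ccl5 (r = 0.70, rho = 0.59, permutation p = 0.0014 and 0.0063, adjusted 0.0060 and 0.023), and that r was 0.47 without female wildtype 2 and 5.

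Of the 24 interferon signalling genes themselves, 12 were lower and 0 higher in female cKO libraries, against 4.41% and 3.32% of all genes. Their median log2 change was -0.82. The 4 with the smallest p were Ifit3 (-1.36), Rsad2 (-1.63) and Irf7 (-1.32), which are antiviral effectors and a transcription factor of the type I response, and Stat2 (-0.91), a transducer of interferon signals. In males 0 of 24 passed by edgeR or DESeq2, 4 were lower at an unadjusted p under 0.05, as were 2.85% of all genes, and the median was -0.12; the smallest p belonged to Rsad2 (-1.11, adjusted p = 0.30). Of 20 genes of NF-kB signalling, a pathway that also drives chemokine genes, 0 passed in either sex by edgeR or DESeq2, with 2 higher and 3 lower in females and 0 higher and 2 lower in males at an unadjusted p under 0.05. At that p 8.18% of all genes were higher and 11.01% lower in females, and 2.01% and 2.85% in males. The female values with the smallest p were Myd88 at -0.56, Tnf at -0.73, Cd14 at 0.47 and Il1b at 0.73.

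Of 28 further chemokine ligands, 14 were tested, with 3 higher and 2 lower in female cKO libraries, against 3.32% and 4.41% of all genes. Their median log2 change was 0.06. Ccl22, a ligand of CCR4, rose by 2.04 (adjusted p = 6.2e-05) and averaged 4.93 ± 2.54 CPM in female wildtype and 20.4 ± 1.42 in female cKO libraries. Its groups were fully apart, at 1.97 to 9.22 against 18.5 to 22.3 CPM. Cxcl2, a neutrophil attractant, rose by 2.03 (adjusted p = 0.047) at a mean under 1 CPM in every group, and Ccl11 is given above. Ccl8 and Cxcl11 were the 2 that fell. In males 0 of 14 passed by edgeR or DESeq2. At an unadjusted p under 0.05, 1 was higher and 2 were lower, against 2.01% and 2.85% of all genes. Ccl22 was at 0.88 in males (adjusted p = 0.56).

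Of 23 chemokine receptors, 12 were tested. Ccr2 was at -1.28 in females (adjusted p = 0.086). Ccr1 rose in males (2.56, adjusted p = 0.048), from 0.204 to 1.11 CPM in wildtype to 1.14 to 7.05 CPM in cKO libraries, and was at 0.43 in females (adjusted p = 0.72). In males 1 of the 12 thus rose and 0 fell, against 0.0726% and 0.115% of all genes. In females 0 of the 12 rose, against 3.32% of all genes, and 1 fell, against 4.41%. This was Xcr1 (-3.67, adjusted p = 1.2e-04), a receptor that marks a class of dendritic cells. It went from 0.475 to 2.01 CPM in wildtype to at most 0.184 in cKO libraries. In males Xcr1 was at -1.88 (adjusted p = 0.20). DESeq2 called 1 receptor higher and 1 lower in males, and its shares of all genes are not given here. Averaged over the sexes, edgeR called 2 receptors higher and 3 lower, against 2.76% and 3.78% of all genes. The 6 dendritic cell markers, 4 tested, summed to 6.04 to 10.1 CPM in wildtype and 5.93 to 8.03 in cKO females, with a median of 7.03 in each.

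Within replicates 1 to 3 the female comparison called 3 of the 10 ligands, Ccl6 (1.48), Ccl9 (1.33) and Cxcl9 (-1.51), and within replicates 4 to 6 it called 7. The shares of all genes called within each set are not given here. The log2 changes of Ccl3 were 1.15 and 1.94 in the 2 sets, those of Ccl4 0.82 and 1.46, those of Ccl5 -1.97 and -3.15 and those of Cxcl10 -1.48 and -2.57. In males no ligand passed within either set of 3 libraries a group, where Ccl6 was at 1.07 and 1.02 and Ccl9 at 0.74 and 1.19. The direction of every ligand called over all libraries was thus the same in both sets. No title number holds both genotypes, and every cKO library of replicates 1 to 3 carries the same title number. Differences between title numbers therefore cannot be told apart from those of genotype, in these sets or over all libraries.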

How the data were processed

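RNA labelled as from spinal cord microglia was measured in 24 libraries, 6 in each of 4 groups taken from the sample labels. Per the labels' protocols, RNA came from a Direct-zol kit and mRNA was enriched for KAPA Stranded libraries. Tools named in the submitters' processing notes are Trimmomatic, FastQC and bcl2fastq 2.17, with the build mm10. Which aligner, counter, strand setting and annotation were used is not given in the sources used here.

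Whole-number counts were deposited by the authors in 1 table, per Ensembl gene, not normalized, for 39017 identifiers, of which 37693 (96.6%) matched GENCODE symbols. Genes kept by filterByExpr (16535) were fitted with edgeR 4.0.16 (R 4.3.3), TMM scaling, 1 mean per group and the quasi-likelihood test, with Benjamini-Hochberg adjustment over all genes tested and a threshold of 0.05. CPM use the TMM-scaled sizes. Total counts were 27110133 to 40554736. Scores and correlations use log2(CPM + 1), and correlations 100000 permutations. The procedure was tested on simulated data.

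The ligands, classes, lists and tests were chosen with earlier results of these data known. Named were all 10 ligands, Kdm6a, up to 4 genes of smallest p per pathway list and sex (1 such gene is not reported here, and not all others are printed), and marker sums with defining markers; the genes beside the clusters and the overlapping genes were added after their values were seen. Replicates are numbered in accession order, which pairs no libraries. Alternatives were DESeq2 1.42.0, RLE size factors, other filters, voom quality weights (limma 3.58.1), fits of only the groups compared, counts divided by 2, a covariate for infiltrating cells, the number in the titles as a random effect in limma voom, replicates 1 to 3 and 4 to 6 fitted apart or with a set term, and removal of 4 doubted libraries or each library in turn. Removal of female wildtype 5 with male cKO 1, limma voom without the title number, and marker sums without Fn1 or Flt1, were chosen after seeing the data.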

Additional observations from a re-analysis of the deposited data

Results flagged for a closer look

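In 8 of the 40 sets of 6 libraries (10 ligands in 4 groups) 1 library lay farther from the rest than Dixon's 95% limit allows. For independent sets with a normal spread, chance gives about 1 in 20. The sets here share libraries, hold ligands that vary together and were taken on CPM without a log scale. That rate is therefore no measure of how many to expect here. Female wildtype replicate 5 was the highest of its group for Ccl5 (377 CPM, next 89.8), Cxcl9 (366, next 167), Ccl12 (211, next 90.7) and Ccl6 (547, next 302). Male cKO replicate 1 was the highest of its group for Ccl2 (49.5 CPM, next 11.4), Ccl12 (208, next 87.4) and Cxcl10 (62.3, next 18.9). Female wildtype replicate 3, which held counts of Ddx3y, was the highest of its group for Ccl4 (71.2 CPM, next 34.9). Each of the 8 was the highest library of its group. With female wildtype 5 and male cKO 1 both left out, the male log2 changes of Ccl2 and Cxcl10 were -0.87 and -1.13, neither past the threshold (edgeR's quasi-likelihood test, adjusted p = 0.62 and 0.23).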

How the results depend on the processing

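The counts of called ligands and the class differences stayed within 1.5 times, or 1 SD, of their values in 94 cases where a setting other than leaving out 1 library was changed, and moved in 8. That SD is the spread of the score between libraries and not the error of the difference. In males it was 0.76 in wildtype and 1.14 in cKO, so the limit is wide for the male class difference. Counts of 0 that stayed at 0 are among the 94. Replicates 1 to 3 alone called 3 ligands in females and 0 in males, 2 for the average of the sexes and 2 between female and male cKO; replicates 4 to 6 alone called 0 in males and 1 between female and male cKO. The title number as a random effect in limma voom (consensus correlation 0.216) called 0 in males and 3 averaged over the sexes; limma voom without it called 2 and 7. Leaving out 1 library gave 7 to 8 calls in females and 2 in males, 7 to 8 for the average, 0 for the difference between the sexes and 1 to 7 between female and male cKO. The shares of all genes called under the changed settings are not given here. Whether other genes lost or gained calls to the same degree is therefore not shown. For single ligands 624 values kept direction and side of the threshold, 31 lost and 9 gained a call, and 9 changed sign, all in males among ligands that did not pass. These were Ccl2 with quality weights (-0.27), the title number (-0.23), limma voom without it (-0.35), the term for replicate sets (-0.076), replicates 4 to 6 alone (-0.97) and without female wildtype 5 and male cKO 1 (-0.87), Ccl12 with replicates 4 to 6 alone (-0.31) and without those 2 libraries (-0.11), and Cxcl16 with replicates 4 to 6 alone (-0.077). Leaving out 1 library gave male values of -0.88 to 0.29 for Ccl2, -0.11 to 0.55 for Ccl12 and -0.061 to 0.13 for Cxcl16. The female call of Cxcl10 was lost with the title number (-1.88, adjusted p = 0.067, limma), the infiltrating-cell covariate and without the 4 doubted libraries. The cause was not tested, except that fits of 3 libraries a group have fewer samples. No paired analysis of cKO against wildtype was possible because 0 of the 7 title numbers hold both genotypes and replicate numbers follow accession order. Between the sexes 3 title numbers are shared in cKO and 2 in wildtype, and with the random effect 4 and 0 ligands were called there, as without it. Depth does not limit the ligands, while Cxcl11, Cxcl2, Xcr1 and most leukocyte markers lie near or under 1 CPM.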
